A study of Homo sapiens with 36 samples.

Results

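RET, the receptor tyrosine kinase for ligands of the GDNF family, and its coreceptor genes GFRA1, GFRA2 and GFRA3 were followed across 9 hormone treatments of ZR-75-1, a human mammary carcinoma line with active estrogen signalling. Members were all probes that the platform annotation maps to these 4 symbols, which gave 9 of the 48803 probes on the array and 4 of 18665 named genes. RET had 3 probes, GFRA1 had 4, and GFRA2 and GFRA3 had 1 each. RNA from 36 samples was hybridized to Illumina bead arrays, 4 arrays per group. Every group was kept for 48 h in phenol red-free medium with 10% hormone-stripped serum and then treated for 16 h. The single treatments were ethanol vehicle (VC), the estrogen estradiol (E2), the androgen dihydrotestosterone (DHT), the progestin medroxyprogesterone acetate (MPA) and its natural counterpart progesterone (PROG). The combined ones were E2+DHT, E2+MPA, E2+PROG and a group written E2s+PROG. The stated dose was 10 nM for E2 and DHT, singly or combined. Doses of MPA, of PROG and of the E2 combined with them are not in the labels, and neither is the meaning of the s. All cells came from 1 line, and separate cultures are not stated for the replicates, so a p-value here covers only the variation among these arrays, possibly technical.

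Ligands of the GDNF family do not bind RET alone. Each ligand first binds a GFR-alpha coreceptor tethered to the outer membrane, GDNF preferring the product of GFRA1, neurturin that of GFRA2 and artemin that of GFRA3, and the complex then brings RET molecules together so that they phosphorylate each other. Adaptors docked on RET pass the signal to the MAP kinase and PI3 kinase pathways. In estrogen receptor-positive breast cancer cells RET and GFRA1 are known as genes that respond to estrogen.

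The bases just before the annotated starts of these genes are shown because the treatments act through nuclear receptors that bind DNA. RefSeq start sites of build GRCh38.p14 were matched for RET (2 starts), GFRA1 (4) and GFRA3 (1). GFRA2 is named only. The first RET start has the window chr10:43076819-43077068 on the + strand, with matches to the GC box GGGCGG on either strand in capitals, and the first GFRA1 start has the window chr10:116274706-116274955 on the - strand, with the forkhead motif TGTTTAC in capitals. Each window holds the 250 bases before the start, 5′ to 3′ along the gene.
RET: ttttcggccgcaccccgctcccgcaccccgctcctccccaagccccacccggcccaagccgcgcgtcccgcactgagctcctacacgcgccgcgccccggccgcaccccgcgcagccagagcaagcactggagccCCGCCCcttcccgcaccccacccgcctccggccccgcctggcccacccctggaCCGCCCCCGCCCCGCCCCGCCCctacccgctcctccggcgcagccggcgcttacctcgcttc
GFRA1: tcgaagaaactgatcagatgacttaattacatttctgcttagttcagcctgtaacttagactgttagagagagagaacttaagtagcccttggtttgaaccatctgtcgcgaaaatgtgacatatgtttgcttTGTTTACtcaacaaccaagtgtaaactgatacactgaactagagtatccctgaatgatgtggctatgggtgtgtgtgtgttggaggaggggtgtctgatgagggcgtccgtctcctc
The RET window was 79.6% G or C and held 5 matches to GGGCGG, all on the strand opposite to the gene, of which 4 lie end to end or overlap between 62 and 41 bases before the start. Of 35116 such windows in the table, 42.6% held GGGCGG at least once. The GFRA1 window was 43.2% G or C and held TGTTTAC once, from 117 to 111 bases before the start, a motif found in 2.98% of all windows. GGTCA, the half-site of the estrogen response element, was searched on both strands and was in none of the 7 windows, against 32.6% of all windows. The full element, GGTCA and TGACC spaced by 3 bases, was likewise in none, against 0.0399% of all. TGTTCT, a half-site of the androgen and progesterone receptors, was only in the GFRA3 window, against 12.4% of all. These are matches of letters in short windows and say nothing about binding.

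Signals are given as normalized log2 values, and a probe counted as above background on an array where its deposited detection p was under 0.05. The lowest signal called so lay between 5.86 and 6.21 depending on the array. GFRA2 was above background on 36 of 36 arrays and RET, by its brighter probe, on 24. GFRA1 was so on 10 arrays by its brightest probe. GFRA3 was above background on 0 of 36 arrays. At a stricter detection p under 0.01, GFRA2 remained on 34 arrays while every RET and GFRA1 probe was on 0, so RET and GFRA1 were read close to the limit of the array. A probe was tested if it was above background on at least 4 arrays, which held for 5 of the 9 probes and for RET, GFRA1 and GFRA2. In bulk RNA, fewer expressing cells and less RNA per cell cannot be told apart.

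RET was higher in cells given E2 than in cells without it. Its brighter probe (ILMN_1655610) was above background on 20 of 20 arrays with E2 and on 4 of 16 without. The mean level of each of the 5 groups with E2, from 6.26 to 6.57, was above that of each of the 4 groups without, from 5.73 to 5.97. Averaged over the 4 matched backgrounds (E2 against vehicle and E2 with DHT, MPA or PROG against that steroid alone), E2 raised RET by 0.54 on the log2 scale (SE 0.108, 95% CI 0.322 to 0.762, limma adjusted p = 0.000744), with a higher mean in 4 of 4 backgrounds. This average was added after the levels had been seen, and it is a fitted value, since RET was below background on most arrays without E2. Without background correction it was 0.231 (adjusted p = 0.00191). Within the table columns outside a run that mostly stood apart it was 0.45 and no longer passed (adjusted p = 0.105).

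Without E2, the RET signal on the 4 vehicle arrays was 5.49, 5.74, 6.02 and 6.62. With DHT it was 5.50, 5.69, 5.72 and 6.02. With MPA it was 5.71, 5.76, 6.01 and 6.13. On the PROG arrays it was 5.50, 5.62, 5.78 and 6.30, and of these 16 arrays the vehicle array at 6.62 (replicate 1) stood highest, inside the range of the E2 groups. With E2 alone the signal was 6.15, 6.35, 6.37 and 6.96. With E2+DHT it was 6.30, 6.44, 6.67 and 6.84, all above every DHT array. With E2+MPA it was 6.13, 6.19, 6.35 and 6.44, all above the MPA arrays, although the closest pair read 6.13 on both sides at 2 decimals. With E2+PROG it was 5.95, 6.08, 6.19 and 6.82, overlapping the PROG arrays. With E2s+PROG it was 6.23, 6.45, 6.75 and 6.84, much the same range as with E2+DHT.

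**Figure D1:**
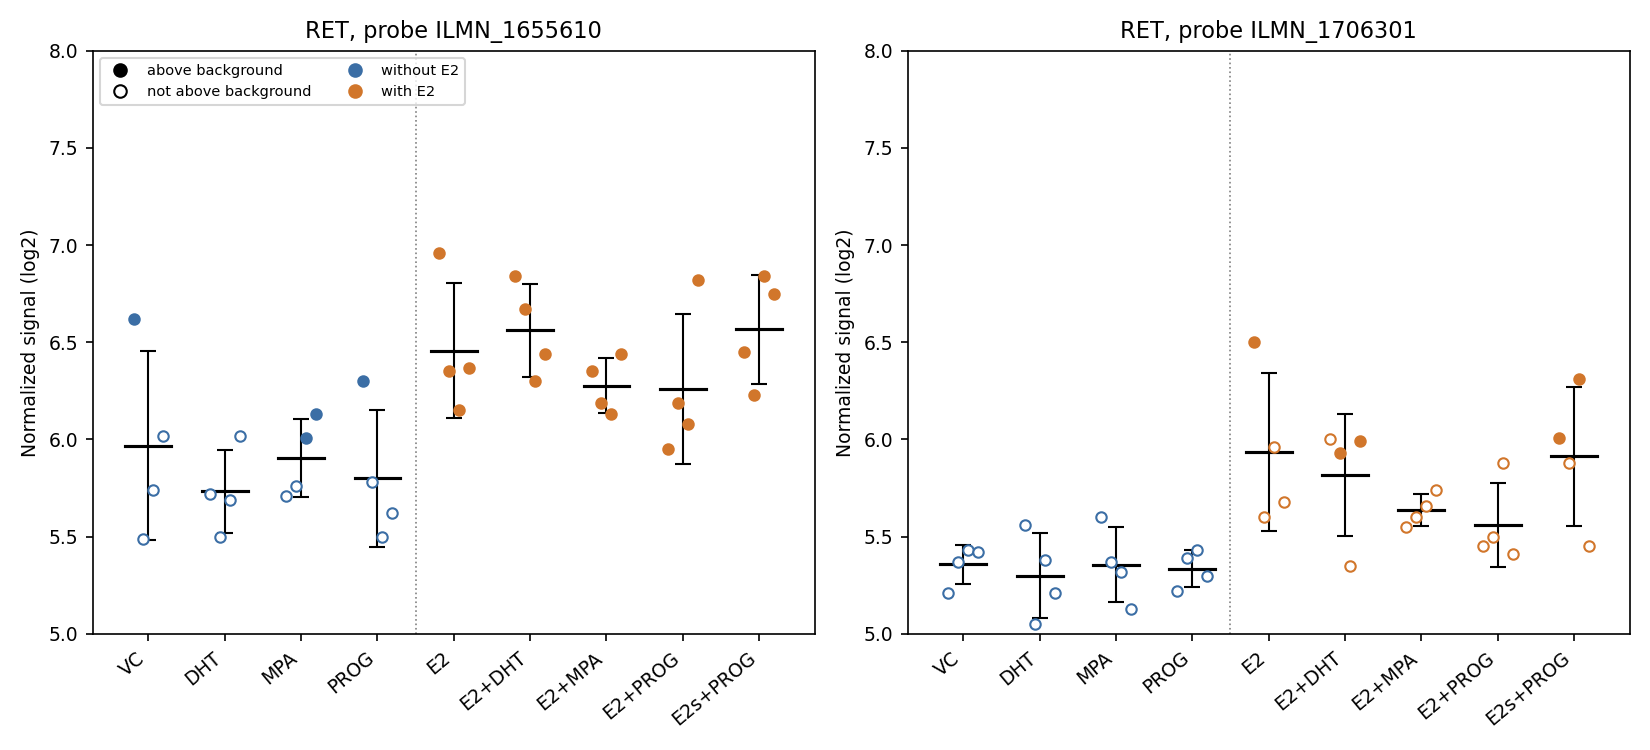
Normalized log2 signal of the 2 tested RET probes (y axis) on each array by treatment group (x axis), with the group mean and SD (n = 4). Filled points were above background. The brighter probe (left) is filled on all 20 arrays with E2 and on 4 of 16 without, and the second probe (right) on 5 of 20 and 0 of 16.

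Taken 1 background at a time, the RET difference passed the threshold in 1 of 4. E2+DHT exceeded DHT by 0.83 (SE 0.216, 95% CI 0.394 to 1.27, limma adjusted p = 0.0415), where 1.33% of the 12195 genes tested passed. Since no DHT array was above background for RET, the measured means (6.57 and 5.73) give only a bound, at least 1.39-fold higher with E2+DHT. This bound concerns the means of these arrays and takes no account of their spread. That call was close to the threshold: it was lost in 14 of the 19 alternatives that gave an adjusted p. Among them were the omission of E2+DHT replicate 1, 2 or 4 or of DHT replicate 1, 2 or 3, for which the adjusted p lay between 0.0657 and 0.171. E2 against vehicle gave 0.49 (SE 0.216, 95% CI 0.0549 to 0.934, adjusted p = 0.247), where 1.86% of genes passed. A fit that left out vehicle replicate 1 and held a run of table columns as a block, added after the data were seen, gave 0.67 with an adjusted p of 0.05, just inside the threshold. That array was the highest for RET without E2, so leaving it out raises the difference and the fit is no support. Omission of 1 array alone passed in 0 of 8 cases (lowest limma adjusted p = 0.12). E2+MPA against MPA gave 0.38 (95% CI -0.0604 to 0.819, adjusted p = 0.355), where 1.35% of genes passed, and E2+PROG against PROG 0.46 (95% CI 0.0192 to 0.899, adjusted p = 0.281), where 4.81% passed.

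The size of the E2 difference was not shown to depend on the second steroid. The interaction of E2 and DHT was 0.34 (95% CI -0.283 to 0.961, adjusted p = 0.931), with 0.0082% of all genes past the threshold. That of E2 and MPA was -0.12 (95% CI -0.737 to 0.507, adjusted p = 0.828), with 0.0656% of genes past it. For E2 and PROG it was -0.04 (95% CI -0.658 to 0.586, adjusted p = 0.95), with 1.54% of genes past it. Each of these intervals is wider than the E2 difference itself.

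In the mean E2 difference 6.45% of genes passed the threshold, and in the fit over all 21116 kept probes 4.6% passed, the brighter RET probe among them (adjusted p = 0.0011). The second RET probe (ILMN_1706301), which like the first is annotated to transcript NM_020630, was above background on 5 of 20 arrays with E2 and 0 of 16 without. Its signal ran from 5.05 to 5.60 without E2 and from 5.35 to 6.50 with it. It passed the detection filter only through arrays with E2, which favours a positive difference, so its mean E2 difference of 0.40 (95% CI 0.22 to 0.583) is given as a description and not as support for that of the first probe. With E2 alone it read 5.60, 5.68, 5.96 and 6.50, all above the vehicle arrays at 5.21, 5.37, 5.42 and 5.43. Across the 36 arrays the signals of the 2 probes had a Pearson r of 0.579, and 0.0765 after the group means were removed. The same selection affects the separation from vehicle and the r over all arrays, so they too are descriptions and not support. The third RET probe (ILMN_1666314) is annotated to transcript NM_020975, which encodes a RET form with a longer tail. It was above background on 0 of 36 arrays, between 4.97 and 5.65, so the array gave no comparison for it.

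**Figure D2:**
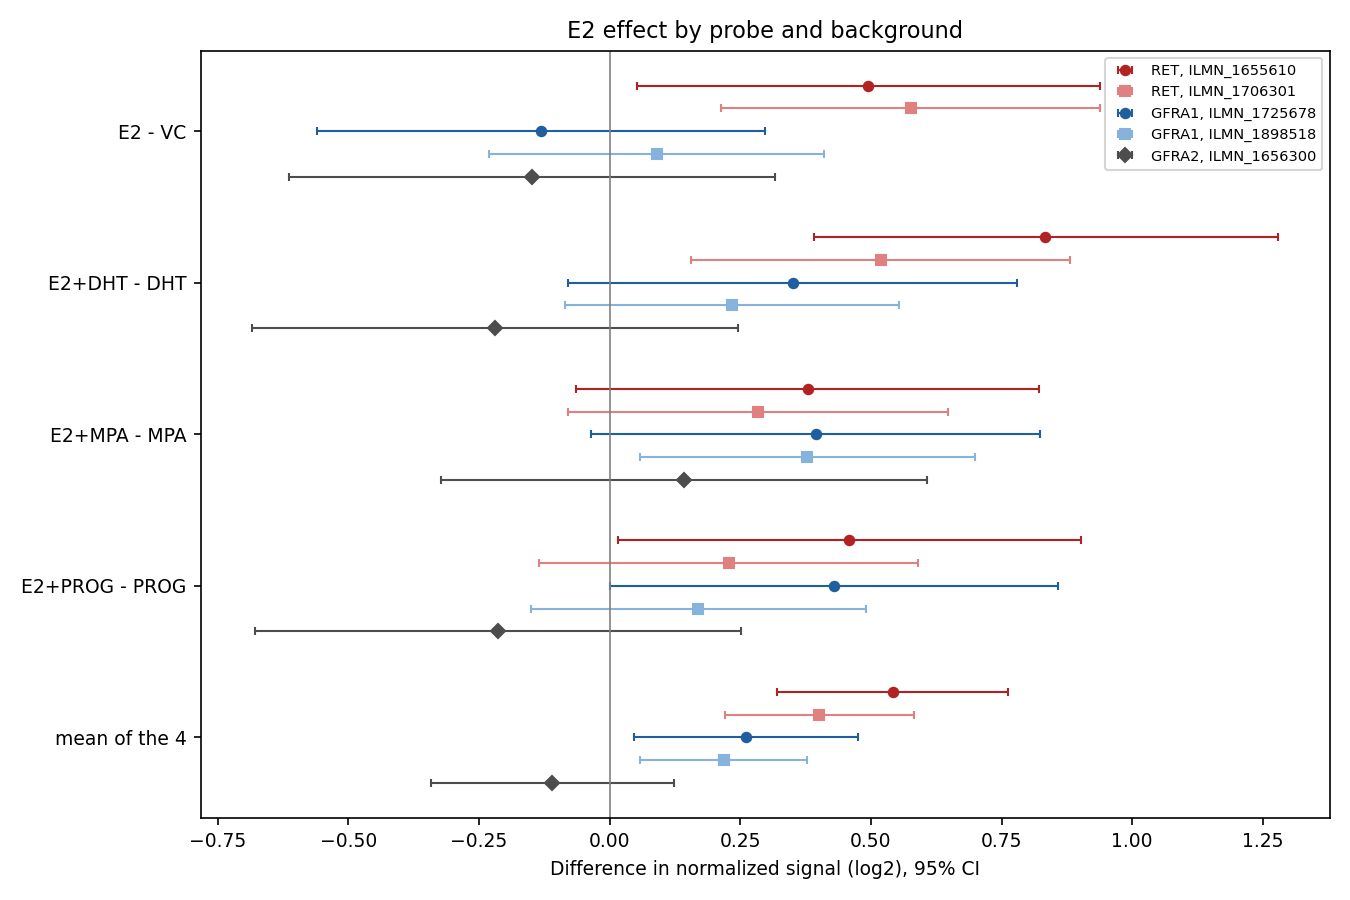
Difference in log2 signal between cells with and without E2 (x axis, points with 95% confidence intervals) for the 5 tested probes in each of the 4 backgrounds and as their mean (y axis). The brighter RET probe lies right of 0 in every background, with a mean of 0.54. The brightest GFRA1 probe has a mean of 0.26 and GFRA2 one of -0.11. The second RET probe (0.40) and the second GFRA1 probe (0.22) passed the detection filter only through arrays with E2. The brightest GFRA1 probe would not have passed it without those arrays. That selection favours a positive difference, so the positions of these probes are descriptions.

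The group order for RET from highest to lowest was E2s+PROG (6.57 ± 0.276 SD, n = 4), E2+DHT (6.57 ± 0.24), E2 (6.46 ± 0.35), E2+MPA (6.28 ± 0.14), E2+PROG (6.26 ± 0.385), vehicle (5.97 ± 0.486), MPA (5.90 ± 0.201), PROG (5.80 ± 0.352) and DHT (5.73 ± 0.215). No neighbours in this order differed beyond their spread. The widest step, 0.29 between E2+PROG and vehicle, had a limma adjusted p of 0.523. Among all 36 pairs of groups RET passed in 3, each setting a group with E2 against 1 without. Besides E2+DHT against DHT these were E2s+PROG against DHT (0.835, adjusted p = 0.022), where 3.12% of genes passed, and E2+DHT against PROG (0.77, adjusted p = 0.0462), where 2.71% passed. GFRA1 and GFRA2 passed in 0 of 36 pairs by limma, with lowest adjusted p of 0.18 and 0.505.

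GFRA1, the GDNF coreceptor gene, was close to background throughout. Its brightest probe (ILMN_1725678) was above background on 7 of 20 arrays with E2 and 3 of 16 without. The vehicle arrays read 5.45, 5.84, 6.06 and 6.24, the MPA arrays 5.32, 5.47, 5.61 and 5.79, the DHT arrays 5.49, 5.60, 5.66 and 6.31, and the PROG arrays 5.40, 5.48, 5.73 and 5.96. E2 alone gave 5.66, 5.73, 5.82 and 5.86, inside the vehicle range. E2+DHT read 5.89, 5.98, 6.07 and 6.52, which lay above every E2 array. E2+MPA gave 5.68, 5.79, 5.87 and 6.43, E2+PROG 5.72, 5.75, 6.02 and 6.79, and E2s+PROG 5.73, 5.91, 5.92 and 5.94. Apart from E2+DHT and E2, the groups set side by side in these comparisons overlapped.

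GFRA1 passed the threshold in none of the 18 comparisons of group pairs, nor in the interactions. E2 against vehicle gave -0.13 (95% CI -0.558 to 0.293, limma adjusted p = 0.77), while E2 in the presence of another steroid gave 0.35 with DHT (adjusted p = 0.563), 0.39 with MPA (adjusted p = 0.322) and 0.43 with PROG (adjusted p = 0.305). The mean E2 difference was 0.26 (SE 0.104, 95% CI 0.0474 to 0.473, adjusted p = 0.168). The brightest probe was above background on 3 of 16 arrays without E2, under the 4 arrays that the filter asks. It was thus kept only with the help of arrays with E2. That selection favours a positive difference, so its E2 differences are descriptions. The second tested probe (ILMN_1898518) gave 0.22 (95% CI 0.0579 to 0.378, adjusted p over all probes = 0.135). That probe was above background on 4 of 20 arrays with E2 and 0 of 16 without, so it passed the detection filter only through arrays with E2. When the tested probes of each gene were averaged, the GFRA1 mean E2 difference was 0.24 with an adjusted p of 0.0432. Both of the averaged GFRA1 probes were kept through arrays with E2, so this value is a description and not support. On the second probe the E2s+PROG arrays read 5.91, 5.94, 6.02 and 6.06, all above its E2 arrays at 5.50, 5.51, 5.52 and 5.70, a difference of 0.43 (unadjusted p = 0.0107, limma adjusted p = 1). The other GFRA1 probes were above background on 3 and 1 of 36 arrays and were not tested.

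GFRA2, the neurturin coreceptor gene and the member above background on every array, passed in none of the 22 comparisons. Its signal ranged from 6.72 to 8.09 over the 36 arrays, with a median of 7.40 with E2 and 7.43 without. The vehicle arrays read 6.97, 7.34, 7.66 and 8.09, so the vehicle group alone spanned most of that range. DHT gave 7.42, 7.56, 7.64 and 7.66, and MPA 7.25, 7.27, 7.29 and 7.34. These groups did not overlap, with a difference of 0.28 (95% CI -0.179 to 0.744, limma adjusted p = 0.579). PROG gave 7.13, 7.45, 7.77 and 8.01. With E2 alone the arrays read 7.19, 7.38, 7.40 and 7.50, with E2+DHT 6.72, 7.46, 7.56 and 7.65, and with E2+MPA 6.88, 7.39, 7.44 and 8.0. E2+PROG read 6.86, 7.26, 7.62 and 7.77 and E2s+PROG 7.23, 7.32, 7.40 and 7.45, so no group stood apart. The mean E2 difference was -0.11 (95% CI -0.34 to 0.121, adjusted p = 0.725). Neighbouring groups in the order of GFRA2 levels, from PROG (7.59 ± 0.382 SD, n = 4) down to MPA (7.29 ± 0.0395), differed by at most 0.09.

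**Figure D3:**
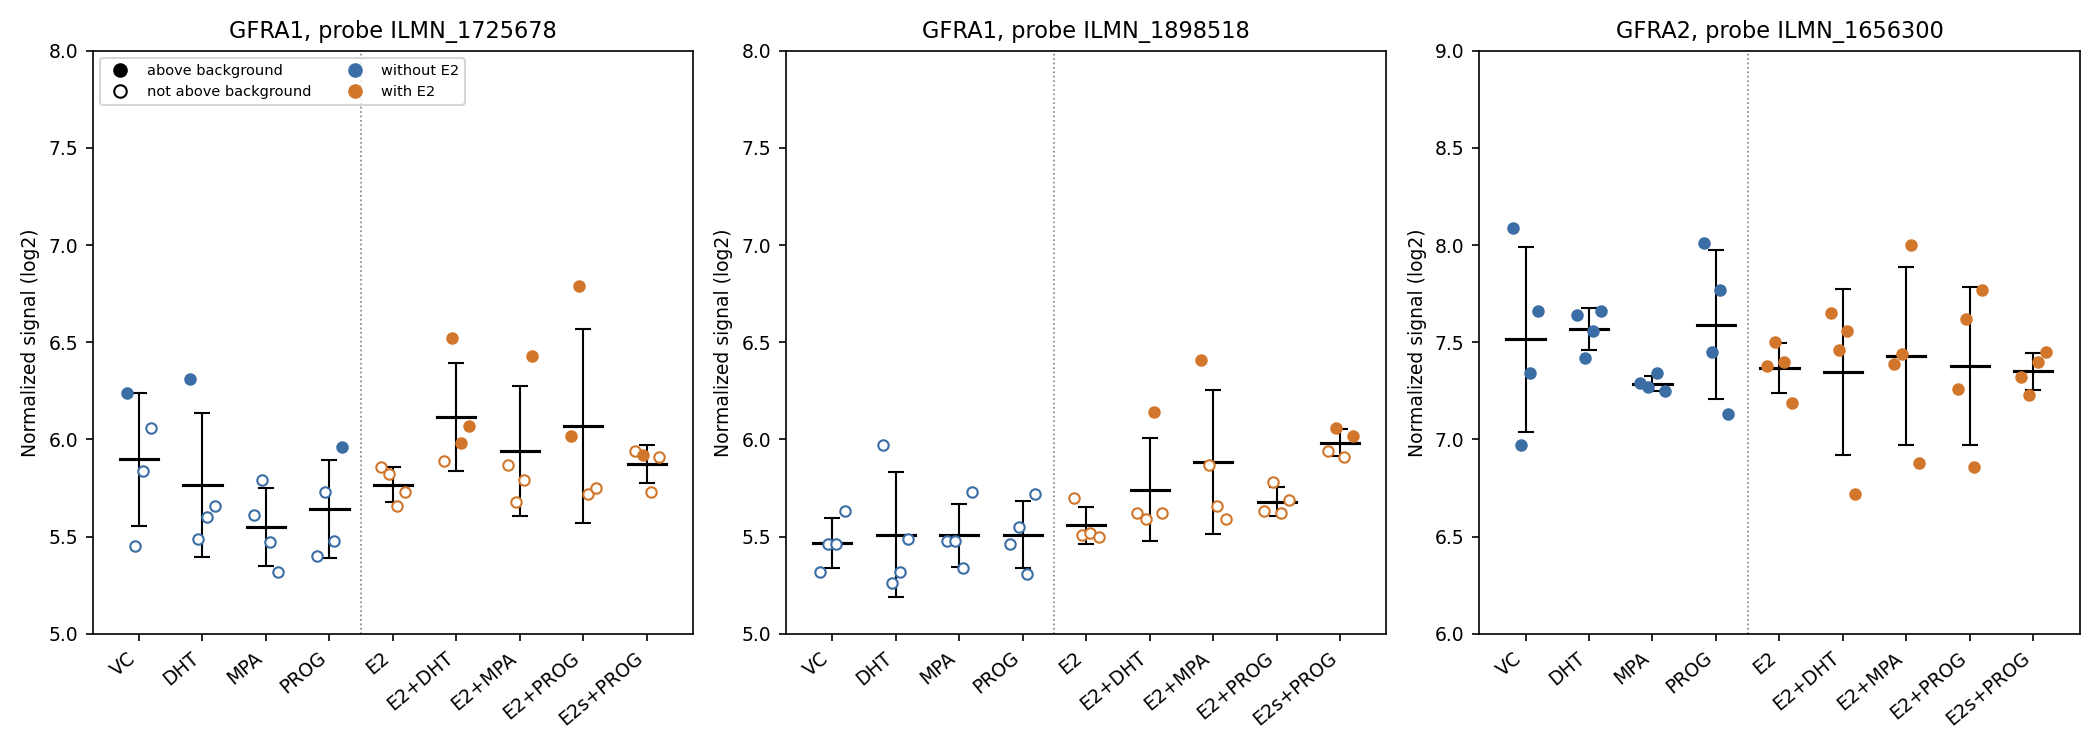
Normalized log2 signal (y axis) of the 2 tested GFRA1 probes and the GFRA2 probe on each array by treatment group (x axis), with the group mean and SD (n = 4). Filled points were above background. The brightest GFRA1 probe is filled on 10 of 36 arrays, among them 3 of the 4 with E2+DHT, and the second on 4 of 36. GFRA2 points are filled on 36 of 36 arrays, and the GFRA2 points of DHT and MPA are those that do not overlap.

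GFRA3, the artemin coreceptor gene, was not well above background on any array. Its signal lay between 4.97 and 5.67, and its lowest detection p was 0.116. With no filter on dim probes its mean E2 difference was -0.04 (adjusted p = 0.869 over 18665 genes), a value that measures background.

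None of the androgen or progestin treatments moved a member past the threshold. For RET, DHT against vehicle gave -0.23 (95% CI -0.673 to 0.206, limma adjusted p = 0.696), where 2.4% of genes passed. MPA gave -0.07 (95% CI -0.506 to 0.373) and PROG -0.17 (95% CI -0.605 to 0.274), where 1.88% and 0.0574% of genes passed. At an unadjusted p under 0.05 the count was also 0 of the 3 members tested in each of these. The GFRA1 differences were -0.14, -0.35 and -0.26 for DHT, MPA and PROG and those of GFRA2 0.05, -0.23 and 0.08. The median over all genes in the MPA and PROG comparisons was itself -0.105 and -0.106, so relative to it the GFRA1 values were nearer 0.

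Adding a steroid to E2 gave no call either. E2+DHT against E2 gave 0.11 for RET (95% CI -0.334 to 0.546), where 1.08% of genes passed, E2+MPA -0.18 (95% CI -0.622 to 0.258), where 2.14% passed, and E2+PROG -0.20 (95% CI -0.641 to 0.238), where 2.51% passed. E2s+PROG against E2 gave 0.11 (95% CI -0.333 to 0.546), where 0.0902% passed. At an unadjusted p under 0.05 none of these 4 held a member either, by the probe that stood for each gene. The second RET probe gave -0.12, -0.30, -0.38 and -0.02 in the same order. Its interval for E2+PROG (-0.738 to -0.0122) was wholly negative. The second GFRA1 probe gave 0.19, 0.33, 0.12 and 0.43. Its intervals for E2+MPA (0.00741 to 0.648) and E2s+PROG (0.106 to 0.746) were wholly positive. None of these values passed the adjusted threshold. By the brightest GFRA1 probe the same 4 differences were 0.35, 0.18, 0.31 and 0.11. The first of these came from groups that did not overlap, with an exact permutation p of 0.0286, the smallest that 4 against 4 arrays can give, and a limma adjusted p of 0.999. GFRA2 differences lay between -0.02 and 0.06.

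Comparisons between the steroids left the member genes, each read by its brightest probe, apart by at most 0.31 (log2) with no call. Without E2 these were MPA against PROG (0.459% of genes passed), DHT against MPA (0.312%) and DHT against PROG (1.38%), in which RET differed by 0.10, -0.17 and -0.07. With E2 they were E2+MPA against E2+PROG (2.43%), E2+DHT against E2+MPA (0.525%), E2+DHT against E2+PROG (3.29%) and E2s+PROG against E2+PROG (1.74%), in which RET differed by 0.02, 0.29, 0.31 and 0.31. The RET interval for the last pair reached from -0.132 to 0.748, an interval that includes the size of the mean E2 difference. Of the 54 exact permutation tests over member and pair, 4 had an unadjusted p under 0.05, those of RET with E2+DHT against DHT and E2+MPA against MPA, of GFRA1 with E2+DHT against E2 and of GFRA2 with DHT against MPA. Each is a pair of groups that did not overlap, and some such pairs arise by chance among 54 tests. The share of all genes without overlap in these pairs was not counted, so this count is not read as a result about the members.

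**Figure D4:**
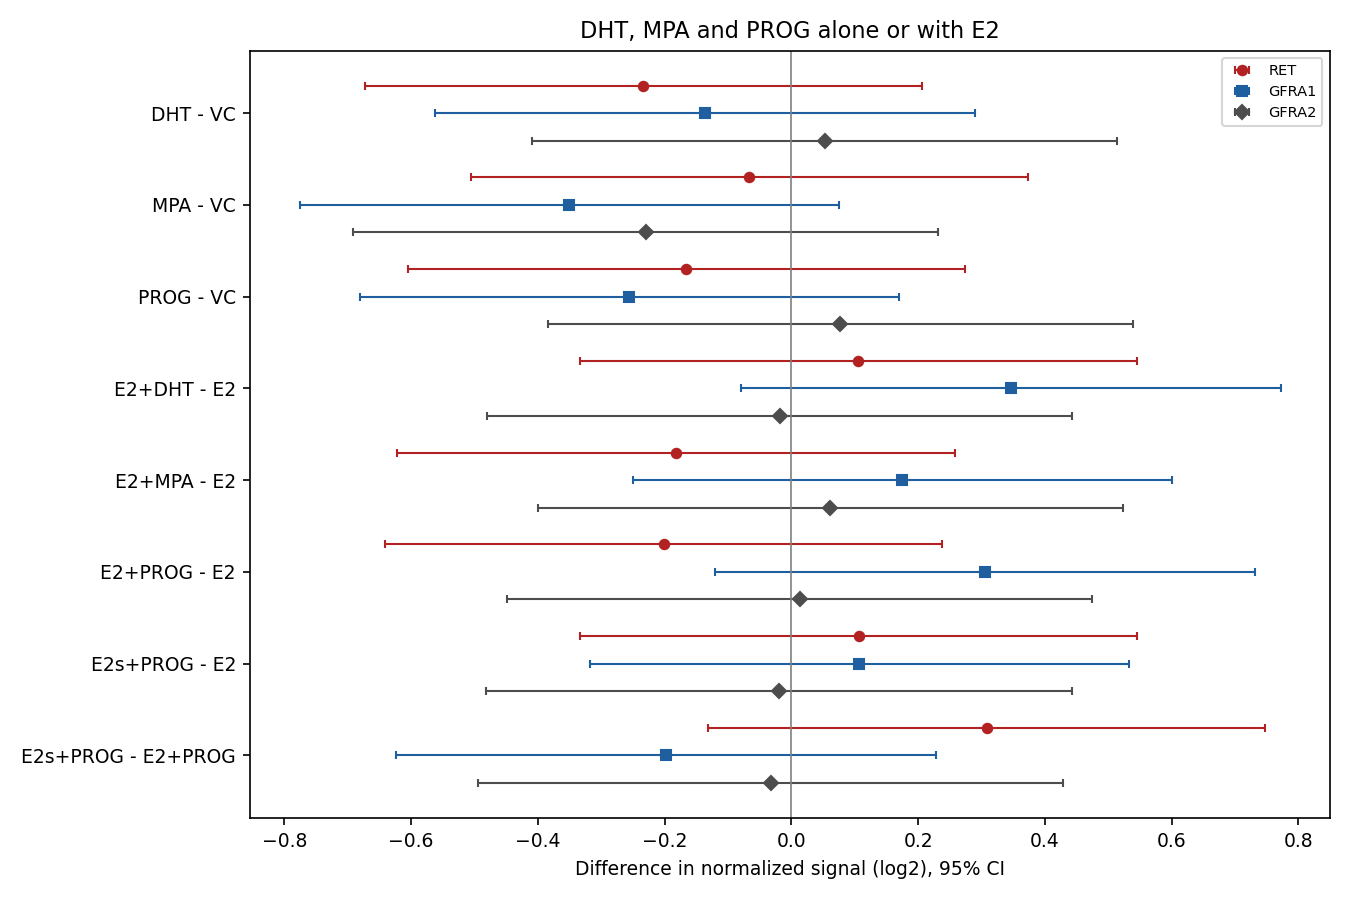
Difference in log2 signal (x axis, points with 95% confidence intervals) of RET, GFRA1 and GFRA2 for DHT, MPA and PROG against vehicle, for each combination with E2 against E2 alone and for E2s+PROG against E2+PROG (y axis). All 24 intervals, each for the probe that stood for the gene, cross 0. The largest GFRA1 differences are -0.35 with MPA and 0.35 for E2+DHT against E2.

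Genes around the receptor were read from lists of ligands, other coreceptors, adaptors, negative regulators, ERK-responsive genes and transcription regulators, chosen with earlier results of these data known. Of 65 listed genes 50 were tested. E2 against vehicle changed 6 of these, 4 higher and 2 lower (12% of the list genes against 1.86% of all, list median -0.01, all genes -0.02). The count was 2 without E2 replicate 2, 3 without E2 replicate 3, vehicle replicate 1 or vehicle replicate 3, 3 with probes of a gene averaged and 13 with the run of table columns as a block. The share of all genes in these alternative fits was not counted, so a general rise or fall in calls cannot be told apart from one in the list. IRS1, an adaptor of insulin and growth factor receptors, rose by 1.33 (limma adjusted p = 5.55e-05). RARA, the retinoic acid receptor alpha, rose by 0.81 (adjusted p = 0.000609), EGR1, an immediate early factor downstream of ERK, by 0.83 (adjusted p = 0.0238) and PLCG1, a phospholipase that docks on activated receptors, by 0.75 (adjusted p = 0.019). SOS1, the exchange factor that activates RAS, fell by 1.00 (adjusted p = 0.0336) and SPRY1, an inhibitor of receptor signalling to ERK, fell by 0.45 (adjusted p = 0.0253).

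In the mean E2 difference 12 of the 50 passed, 8 higher and 4 lower (24% against 6.45% of all genes, list median -0.01, all genes 0.00208). The count was 7 with the 75th percentile in place of quantile normalization, a fit in which the share of all genes was not counted. Among ligands, NRTN, which encodes neurturin, was higher by 0.45 (adjusted p = 0.026). It was above background on 4 of 4 arrays with E2 alone and 1 of 4 vehicle arrays. GDF15, the ligand of another coreceptor, GFRAL, was bright on every array and did not pass (-0.09, adjusted p = 0.575), and ARTN was above background on 0 of 36 arrays. GFRAL itself was above background on at most 1 array. Of the other coreceptors tested, GFRA4, NCAM1 and SORL1, none passed by limma, also at an unadjusted p under 0.05. IRS1 (1.61), GRB10 (0.61) and IRS2 (0.60) were the adaptors that rose most and GRB7 fell (-0.31, adjusted p = 0.0386). SPRY4 rose (0.84) while SPRY1 (-0.34) and CBLB, an E3 ubiquitin ligase of activated receptors (-0.24, adjusted p = 0.0379), fell, so the negative regulators moved both ways. EGR1 (0.61) and the cyclin gene CCND1 (0.33) rose among 6 ERK-responsive genes tested. RARA (1.02) was the only transcription regulator past the threshold, with ESR1 at -0.10 (adjusted p = 0.685), FOXA1 at 0.01, GATA3 at -0.14, TFAP2A at 0.09 and TFAP2C at 0.14. The ESR1 average hides E2 differences of 0.34 from vehicle (limma adjusted p = 0.34) and -0.81 with PROG (limma adjusted p = 0.00297). Its interaction of E2 and PROG was -1.15 (limma adjusted p = 0.00847), where 2% of the list genes and 1.54% of all genes passed.

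By background, the E2 difference passed for 3 of the 50 list genes with DHT (6%, against 1.33% of all genes), 4 with MPA (8% against 1.35%) and 8 with PROG (16% against 4.81%), the first of these 1 and the second 2 with probes averaged. IRS1 rose in each, by 1.68, 1.30 and 2.12, and RARA by 0.94, 1.14 and 1.17. DHT, MPA and PROG alone changed 0 of the 50 by limma, with 8, 12 and 8 at an unadjusted p under 0.05. Of all genes, 2.4%, 1.88% and 0.0574% passed the adjusted threshold there. Without vehicle replicate 2 the MPA and PROG counts were 5 each, and with the table columns as a block the DHT count was 5. Added to E2, DHT, MPA and E2s+PROG likewise changed 0, with 6, 11 and 2 at an unadjusted p under 0.05. Of all genes, 1.08%, 2.14% and 0.0902% passed the adjusted threshold there. A count of 0 among 50 is near each of these shares, so these counts are not read as a result about the list. The E2+MPA count was 3 without E2+MPA replicate 1 or 2. The shares of all genes at that unadjusted p, and in the alternative fits, were not counted. The counts at that p and in those fits are therefore not read as a response of the list. E2+PROG against E2 changed 1, which is 2% of the list genes, near the 2.51% of all genes. It was ESR1, the estrogen receptor alpha gene, which fell by 1.03 (adjusted p = 0.000258). RET in that comparison was -0.20 (adjusted p = 0.954).

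The genes whose 9 group means followed those of RET most closely, among 1442 with a range of at least 1 on the log2 scale, were PREX1 (Pearson r = 0.982), SPINK4 (0.977), KCNH1 (0.973), STC2 (0.971) and SUSD3 (0.964). Their E2 differences from vehicle were 1.17, 2.73, 3.56, 1.17 and 2.90, against 0.49 for RET. The most opposed were ADGRF1 (-0.954), TRIB2 (-0.905) and MAOA (-0.901). For GFRA1 the closest were YOD1 (0.879), MYOF (0.856), GLDC (0.851), CEMIP2 (0.842) and COL18A1 (0.836), and the most opposed PDGFD (-0.825), CD55 (-0.818) and NLGN1 (-0.809). For GFRA2 they were FAM167A (0.871), TRIB2 (0.708), KLHDC10 (0.706), RHBDL3 (0.705) and EDARADD (0.685), with SSTR2 (-0.787), ANKRD29 (-0.753) and PLCD3 (-0.736) at the other end. These are descriptions over 9 means that share arrays and were picked as extremes.

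Of 5 genes known to respond to these steroids, 3 rose with E2, 2 with DHT and 3 with MPA against vehicle. The estrogen-induced genes PDZK1, GREB1 and TFF1 were 5.43, 3.76 and 1.73 higher with E2 (above background on 1, 3 and 4 of the 4 vehicle arrays). FKBP5, a gene induced by androgens and progestins, was 1.87 higher with DHT and 1.68 with MPA. UGT2B11, an androgen-responsive gene, was above background on 0 of 4 vehicle arrays. By the measured means it was at least 65.3-fold higher with DHT and at least 10.9-fold with MPA. GREB1 was also 1.19 higher with MPA. PROG against vehicle and E2s+PROG against E2 called 0 of the 5 by limma (1 and 2 at an unadjusted p under 0.05), with FKBP5 at 0.17 (adjusted p = 0.402) and 0.55 (adjusted p = 0.186). E2+PROG against E2 called 2 of the 5, FKBP5 at 1.74 (limma adjusted p = 2.6e-11) and PDZK1 at -1.20 (limma adjusted p = 7.08e-07). E2s+PROG against E2+PROG gave -1.19 for FKBP5 (limma adjusted p = 2.21e-07). UGT2B11 was 0.69 higher with PROG than with vehicle and did not pass (adjusted p = 0.113). All 6 luminal epithelial markers were above background on every array, while PTPRC and CD3E of leukocytes, COL3A1 of fibroblasts and CHGA of neuroendocrine cells were so on none. CD14, COL1A1, TH and ENO2 were above background on every array. Most of columns 13 to 24 of the deposited table stood apart in the leading component of the residuals (49.4% of residual variance) together with vehicle replicate 1. E2+MPA replicate 4, inside this run, read -6.16 on that component, and MPA replicate 2, outside it, -7.98. Residuals are taken around each group mean, so the MPA and PROG arrays centre on 0 whatever the shift. Columns 13 to 24 hold 0 MPA and 0 PROG arrays, against 2 each of E2+MPA and E2+PROG. They also hold 3 DHT arrays against 1 of E2+DHT, 2 of E2 against 1 of vehicle, and 1 of E2s+PROG. Within these columns RET differed by 0.54 between E2 and vehicle and by 1.10 between E2+DHT and DHT, and within the other columns by 0.41 and 0.78. With the columns as a block the mean E2 difference of RET was 0.50 (limma adjusted p = 0.00127).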

How the data were processed

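Total RNA of 36 ZR-75-1 samples was turned into biotin-labelled cRNA for Illumina arrays, per the labels' protocols. The deposited table pairs, per the file headers, each probe's unnormalized intensity on an array with its detection p-value. A second intensity table that the authors deposited, already processed, served only as an alternative. The scanner software and any earlier steps are not given in the sources used here. The 36 columns were matched to samples by the accessions in the headers, and 0 columns were of other samples.

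The software was R 4.3.3, with the data.table package (version 1.17.8) for reading and limma 3.58.1 for the rest. The neqc function estimated the background through the detection p-values (offset 16), quantile-normalized the arrays and took log2 values, all computed here. Probes with a detection p under 0.05 on 4 or more arrays were kept (21116 of 48803). Genes were named by the platform annotation, and the kept probe with the highest mean stood for a gene (12195 genes). All 36 arrays entered 1 limma model of group means (27 residual degrees of freedom), run on genes and again on all kept probes. P-values were adjusted by Benjamini-Hochberg over every feature of a comparison, the threshold was 0.05, and intervals are at 95%. The scripts were tested on simulated data. The number of arrays limits the precision.

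The members, lists and alternatives were chosen with earlier results of these data known, and the mean E2 difference was added after the members' levels were seen. Named genes were the members, up to 4 list genes past the threshold per list, 5 fixed treatment checks, and the 5 most and 3 least alike genes per member. Alternatives covered background correction, normalization, the filter, the choice of probe, the set of arrays, table columns, a replicate block and omission of each array. Bounds for a group with no array above background took each of its arrays at the higher of its own signal and that array's lowest signal above background. They concern the measured means and take no account of the spread among arrays. Motifs were searched in RefSeq promoter windows on both strands.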

Additional observations from a re-analysis of the deposited data

Results flagged for a closer look

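In 81 sets of 4 arrays (9 member probes in 9 groups), 6 held an array whose distance from its neighbour took up more of the group's range than chance gives in about 1 group in 20, so about that many would be met by chance alone. For the second RET probe (ILMN_1706301), E2+DHT replicate 3 read 5.35, with the other arrays between 5.93 and 6.00. For the brightest GFRA1 probe (ILMN_1725678), E2s+PROG replicate 3 read 5.73 against 5.91 to 5.94. The second GFRA1 probe (ILMN_1898518) read 5.70 on E2 replicate 1 against 5.50 to 5.52, and 6.14 on E2+DHT replicate 3 against 5.59 to 5.62. A GFRA1 probe that was not tested (ILMN_2334359) read 5.82 on E2 replicate 2 against 5.30 to 5.38, and 6.10 on E2+DHT replicate 2 against 5.10 to 5.20. No array of the brighter RET probe, of GFRA2 or of GFRA3 stood apart in this way.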

How the results depend on the processing

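Over 22 comparisons, 466 of 482 alternative values kept their side of the threshold for RET, 471 of 482 for GFRA1 and 502 of 504 for GFRA2, and 0 called values reversed. A value past the threshold in neither fit was taken as kept if it moved by less than the residual SD. The 54 exact permutation tests are among these values. They have no adjusted p and counted as kept wherever the main fit had no call, so they add nothing to these counts as evidence. The RET difference of E2+DHT from DHT (0.83) no longer passed with log2 and quantile normalization without background correction (0.351, adjusted p = 0.0817), the 75th percentile (0.616, 0.409), the authors' processed values (0.838, 0.1), no filter (0.834, 0.0547), adjustment over all kept probes (0.834, 0.0581), only the groups compared (0.834, 0.0679), within columns 13 to 24 (1.10, 0.66) or within the other columns (0.781, 0.923). Leaving out 1 array gave 0.741 to 0.929, with the call lost in 6 of 8 cases. The RET mean E2 difference passed in every alternative run except within the other columns (0.446, adjusted p = 0.105), was smallest without background correction (0.231, 0.00191), and passed in 32 of 32 omissions of an array (0.495 to 0.596). The mean of kept probes (0.472) averages in the second RET probe, kept only through arrays with E2, so that alternative adds no support. RET with E2 against vehicle passed only with vehicle replicate 1, its highest array without E2, left out and the columns as a block (0.671, adjusted p = 0.05). The GFRA1 mean E2 difference passed only with the mean of kept probes (0.239, adjusted p = 0.0432). Both GFRA1 probes in that mean were kept through arrays with E2, so that alternative adds no support.

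Values that passed in neither fit but moved by more than the residual SD were mostly those of GFRA1 with the authors' processed values, which were -0.722 for MPA and -0.677 for PROG against vehicle, 0.714 for E2+MPA against MPA, 0.766 for E2+PROG against PROG, 0.449 for DHT against PROG, and 0.893 and 0.945 for the interactions of E2 with MPA and PROG. GFRA1 also gave 0.245 for the interaction of E2 and PROG with log2 and quantile normalization, and within columns 13 to 24 -0.216 for E2+DHT against E2+MPA and -0.382 for E2+DHT against E2+PROG. GFRA2 gave 0.354 for the interaction of E2 and DHT within columns 13 to 24 and -0.409 for that of E2 and PROG within the other columns. The cause was not tested. The stricter detection filter left RET and GFRA1 untested.

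The labels give the groups the same replicate numbers. Residuals of arrays with the same number had a median correlation of 0.0278 (144 pairs, -0.733 to 0.698) against -0.0334 for other numbers (432 pairs), so the numbers were not taken to pair the arrays. With a replicate block the RET mean E2 difference was 0.542 (adjusted p = 0.000347), and the block changed no member's call.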
